A study of Mus musculus with 19 samples.

Results

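The MAP kinase brakes described here are 7 dual specificity phosphatases and 3 Sprouty and Spred proteins: Dusp1, Dusp2, Dusp4, Dusp5, Dusp6, Dusp10, Dusp14, Spry1, Spry2 and Spred1. All 10 had a probe set annotated with that symbol alone. Each gene was read by the one with the highest mean over the 19 arrays. 8 of the 10 passed the filter on low values and stood among the 9930 genes tested. Dusp14 and Spry2 did not pass it and are given as levels.

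Sorted CD4+ T cells of C57BL/6J mice were measured on Affymetrix arrays in 6 groups, 1 array per sample. The transferred T cells were OT-II cells, whose transgenic receptor sees an ovalbumin peptide. They carried 1 Bcl6yfp reporter allele and were placed in congenic hosts. The hosts received NP-OVA in CFA under the skin, and draining lymph nodes were taken at day 7 or day 10. CXCR5hi PD-1hi cells, the gate that holds T follicular helper (Tfh) cells, were YFP-positive (n = 4, replicate 4 from day 10) or YFP-negative (n = 4, replicates 1 and 4 from day 10). CXCR5lo PD-1lo cells (n = 3, all day 7) came from immunized mice too. A further 2 groups were CXCR5hi PD-1hi cells of Bcl6yfp/+ (n = 3, all day 7) and Bcl6+/+ genotype (n = 3, replicates 1 and 2 from day 10). Naive CD4+ CD44lo CD62Lhi cells (n = 2) were splenic and from mice without immunization, so that tissue and immunization changed together there. One protocol text stands with every sample, and it names the OT-II transfer, immunization and YFP sort also for naive and Bcl6+/+ samples, which it may not describe. Whether the arrays in a group stand for different animals is not stated in the labels, and p-values therefore speak of sample-to-sample spread, part of which may be technical. Ages of the mice were not analysed here. RNA of 12 arrays was extracted with TRIzol. For the 7 arrays of the genotypes and naive replicate 2 the labels give TRIzol or an RNeasy kit.

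MAP kinases (ERK, p38 and JNK) are switched on by phosphorylation of a threonine and a tyrosine, and dual specificity phosphatases remove both phosphates. Dusp1, Dusp2, Dusp4 and Dusp5 are nuclear enzymes made quickly after stimulation. Dusp5 prefers ERK, Dusp6 is a cytoplasmic ERK phosphatase that ERK signalling itself induces, and Dusp10 prefers p38 and JNK. Sprouty and Spred proteins act higher up and dampen the passage of the signal from receptor through Ras to Raf. In T cells this pathway runs from the antigen receptor, through the Ras activator Rasgrp1, to early response genes such as Fos and Egr1.

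The promoters of 4 members are shown first: Dusp2 and Dusp5, both called against CXCR5lo PD-1lo cells, and Dusp1 and Dusp6, both called in all 4 comparisons with naive cells. Each sequence runs from 250 bases before to 50 bases after the start site in RefSeq (build GRCm38.p6): Dusp2 at chr2:127335909-127336208 (plus strand), Dusp5 at chr19:53528895-53529194 (plus), Dusp1 at chr17:26508423-26508722 (minus) and Dusp6 at chr10:99262981-99263280 (plus). Capitals mark matches to 7 motifs searched on both strands, so that a match on the opposite strand reads as its reverse complement.
Dusp2: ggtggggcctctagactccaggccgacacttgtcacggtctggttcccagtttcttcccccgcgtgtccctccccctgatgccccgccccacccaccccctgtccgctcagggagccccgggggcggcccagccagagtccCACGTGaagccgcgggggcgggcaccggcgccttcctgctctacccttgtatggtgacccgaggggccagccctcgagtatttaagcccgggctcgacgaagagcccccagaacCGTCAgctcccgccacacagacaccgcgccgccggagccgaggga
Dusp5: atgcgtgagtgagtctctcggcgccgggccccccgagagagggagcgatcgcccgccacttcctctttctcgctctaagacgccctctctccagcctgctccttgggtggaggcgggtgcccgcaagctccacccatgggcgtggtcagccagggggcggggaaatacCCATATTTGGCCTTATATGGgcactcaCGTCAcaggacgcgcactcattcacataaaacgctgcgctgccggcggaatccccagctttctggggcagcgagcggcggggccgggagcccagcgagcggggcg
Dusp1: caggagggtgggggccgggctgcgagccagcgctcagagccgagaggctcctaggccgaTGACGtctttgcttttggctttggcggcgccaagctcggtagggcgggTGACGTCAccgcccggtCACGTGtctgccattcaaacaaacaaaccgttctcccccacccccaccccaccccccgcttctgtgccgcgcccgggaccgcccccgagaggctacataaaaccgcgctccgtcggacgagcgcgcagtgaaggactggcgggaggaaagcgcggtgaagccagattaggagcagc
Dusp6: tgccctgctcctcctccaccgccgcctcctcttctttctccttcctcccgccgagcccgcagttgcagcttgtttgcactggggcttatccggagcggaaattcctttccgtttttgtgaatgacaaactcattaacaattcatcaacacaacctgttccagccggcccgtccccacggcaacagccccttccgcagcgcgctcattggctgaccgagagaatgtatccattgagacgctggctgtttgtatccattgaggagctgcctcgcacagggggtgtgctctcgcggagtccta

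The motifs were the cyclic AMP response element TGACGTCA, its half-site TGACG (which lies inside the full element), the CArG box bound by serum response factor, the AP-1 site TGANTCA, the EGR site GCGTGGGCG, the spaced repeat TTCNNNGAA and the E-box CACGTG. Positions count from 1 at the start site and give the leftmost base. The Dusp5 window held CArG boxes at -82 and -72, side by side, and a half-site at -55; 1.63% of the 32851 promoter windows of this length held a CArG box and 20.8% a half-site. The Dusp1 window held a full response element at -143, found in 1.79% of windows, a separate half-site at -191, and an E-box at -126, found in 7.15%. Dusp2 held an E-box at -109 and a half-site at 6. Of the other members, Dusp14 held the spaced repeat at -200, found in 8.3% of windows. No match lay in the windows of Dusp6, Dusp10, Spry1, Spry2 or Spred1, and in none of the 9 matched members lay an AP-1 site (7.81% of windows) or an EGR site (0.612%). 9 of the 10 members had a window. A match is a run of letters and was not tested for binding.

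The sorted cells matched their labels. Cd4 and Cd3e stood at 13.29 or more on every array, and Cxcr5 ran from 12.92 to 14.05 on the CXCR5hi PD-1hi arrays, from 9.45 to 10.89 on CXCR5lo PD-1lo arrays and from 2.26 to 2.39 on naive arrays. The columns had been normalized in 7 sets rather than together, judged by arrays whose sorted values were nearly equal. Sets 1, 2 and 3 were replicates 1, 2 and 3 of the CXCR5lo PD-1lo group and both reporter groups. Set 4 held replicate 4 of both reporter groups with naive replicate 1, and naive replicate 2 shared set 5 with Bcl6yfp/+ replicate 1. Replicates 2 and 3 of both genotypes made up set 6, and Bcl6+/+ replicate 1 was alone in set 7. YFP-negative replicate 1 stood apart, with the myeloid genes S100a8 at 10.32 and S100a9 at 12.14, at 2.72 or less on every other array. The myeloid gene Lyz2, at 10.98, and the plasma cell gene Jchain, at 12.42, were highest there too. Both were also seen on the other arrays of set 1. Lyz2 read 6.73 on YFP-positive and 6.76 on CXCR5lo PD-1lo replicate 1, and Jchain 8.45 and 10.53. The results below are given with YFP-negative replicate 1, and it is named where leaving it out changed a call.

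**Figure D1:**
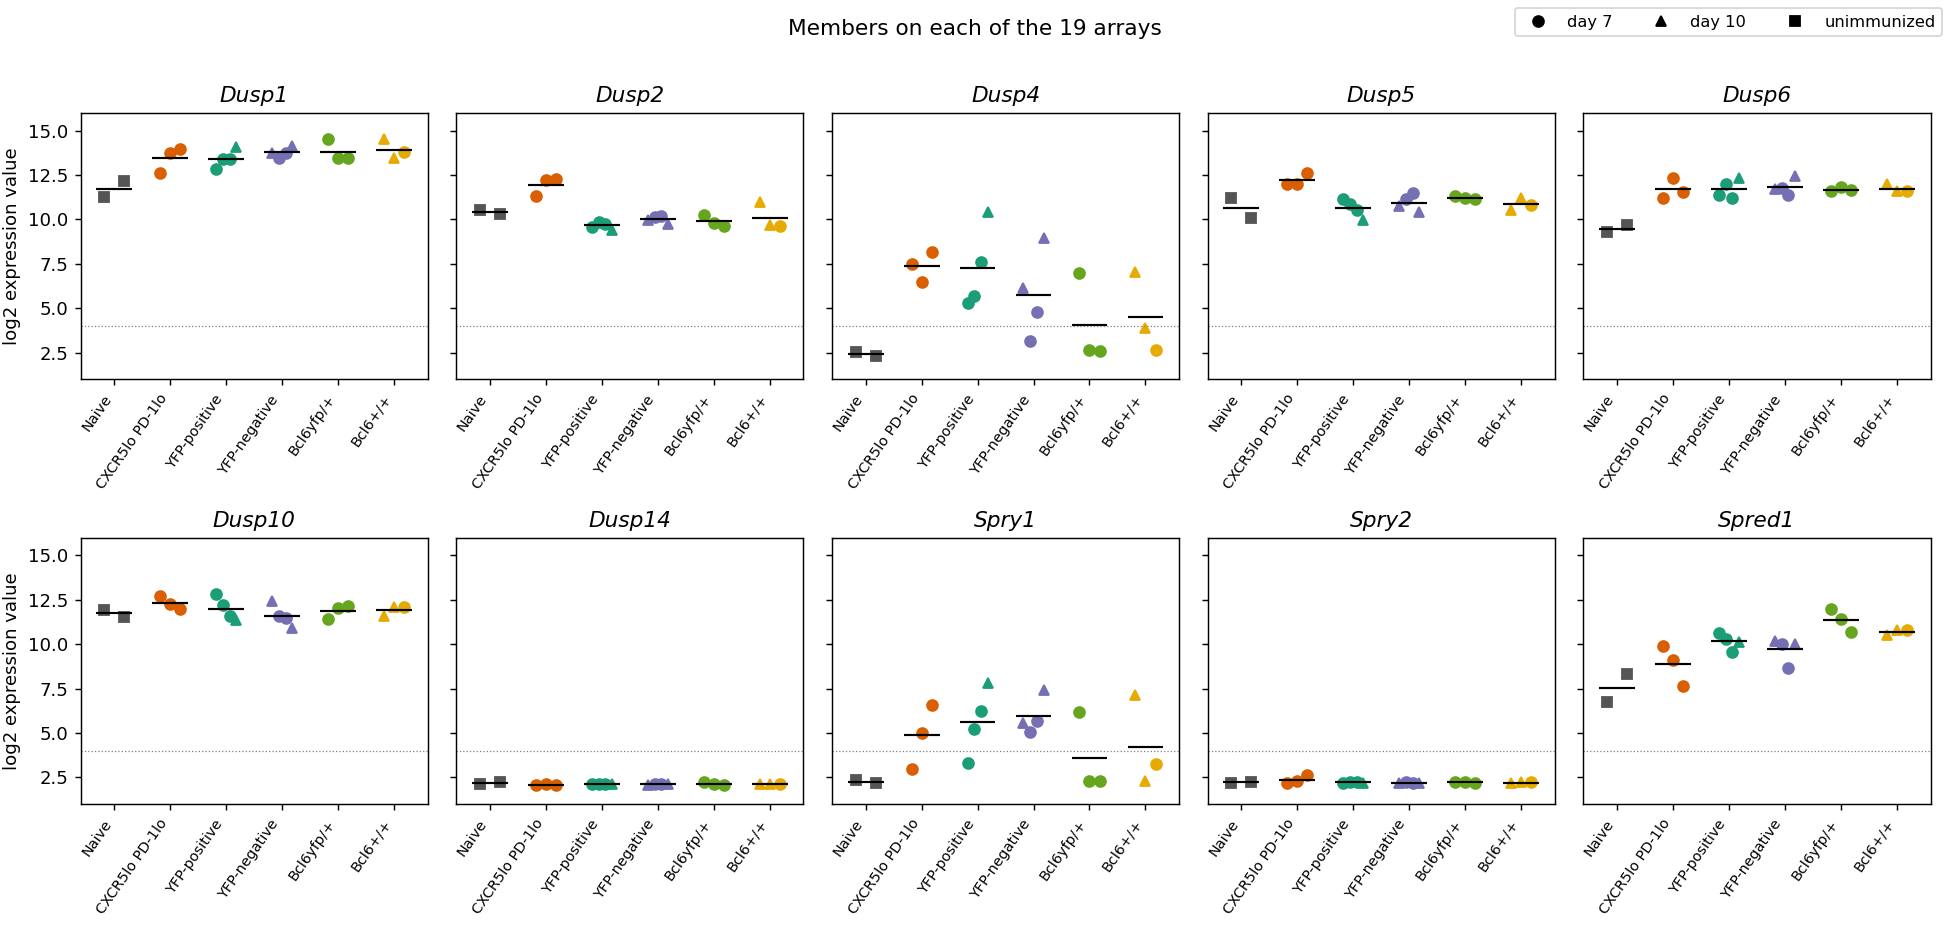
Log2 expression value of each of the 10 members (vertical axis) in the 6 groups, with 1 point per array, circles for day 7, triangles for day 10, squares for naive cells, black lines for group means and a dotted line at the filter value of 4. Dusp2 and Dusp5 are highest in CXCR5lo PD-1lo cells, Dusp1 and Dusp6 lowest in naive cells, Dusp4 and Spry1 scatter within groups, and Dusp14 and Spry2 lie between 2.07 and 2.61 on every array.

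Dusp2 and Dusp5 were the 2 members that separated the CXCR5hi PD-1hi reporter groups from CXCR5lo PD-1lo cells, and both were lower in the CXCR5hi PD-1hi cells. Dusp2 was 4.83-fold lower in YFP-positive and 3.77-fold lower in YFP-negative cells, and Dusp5 3.01-fold and 2.41-fold lower. The other 6 members tested, among them the ERK phosphatase Dusp6, did not pass the test in either comparison. All values below are log2 expression values after GCRMA, and differences are log2 differences with the standard error (SE) of the limma fit.

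Dusp2, a nuclear phosphatase of activated lymphocytes, stood at 11.34, 12.20 and 12.28 on the 3 CXCR5lo PD-1lo arrays. On the YFP-positive arrays it stood at 9.59, 9.87, 9.77 and 9.43, and on the YFP-negative arrays at 9.99, 10.14, 10.22 and 9.75. Every CXCR5lo PD-1lo array lay above every other array of the series, of which Bcl6+/+ replicate 1 came nearest at 10.96. The difference was -2.27 (SE 0.31, adjusted p = 0.00011) for YFP-positive and -1.92 (SE 0.31, adjusted p = 0.00072) for YFP-negative cells, with limma and Benjamini-Hochberg adjustment over all genes. Within normalization sets 1, 2 and 3 the YFP-positive difference was -1.75, -2.33 and -2.51 and the YFP-negative difference -1.35, -2.06 and -2.06. Blocking on the set gave differences of -2.19 (SE 0.14) and -1.83 (SE 0.14).

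Dusp5, the ERK-directed nuclear phosphatase, stood at 12.01, 12.02 and 12.63 on the CXCR5lo PD-1lo arrays. It read 11.13, 10.88, 10.51 and 9.99 on the YFP-positive arrays and 10.75, 11.13, 11.51 and 10.40 on the YFP-negative arrays. The CXCR5lo PD-1lo arrays again lay above all the others, whose highest value was 11.51. The difference was -1.59 (SE 0.33, adjusted p = 0.0042 by limma) for YFP-positive and -1.27 (SE 0.33, adjusted p = 0.026 by limma) for YFP-negative cells. In sets 1, 2 and 3 it was -0.88, -1.14 and -2.12 for YFP-positive and -1.26, -0.88 and -1.12 for YFP-negative cells. With the set as a block it was -1.39 (SE 0.23) and -1.07 (SE 0.23). The YFP-negative call was lost without YFP-negative replicate 1 (-1.21, adjusted p = 0.071 by limma) or 4 (-1.09, 0.094), and without CXCR5lo PD-1lo replicate 2 (-1.37, 0.06) or 3 (-1.07, 0.15). It was also lost with day as a covariate (-0.99, adjusted p = 0.11 by limma), with no filter (adjusted p = 0.052) and with only the groups compared (adjusted p = 0.059). No CXCR5lo PD-1lo array is from day 10.

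2 of the 8 tested members were called in YFP-positive against CXCR5lo PD-1lo cells, where 10.6% of all genes were called and 5.39% were called lower. 2 of 8 were called in the YFP-negative comparison, where 6.53% of all genes were called and 3.39% lower. The median difference of the 8 members was -0.08 and -0.30, beside -0.065 and -0.085 over all genes. In each comparison 2 of 8 members, again Dusp2 and Dusp5, lay below CXCR5lo PD-1lo cells with no overlap of arrays, as did 14.1% and 11.2% of all genes. Both comparisons share the CXCR5lo PD-1lo arrays.

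**Figure D2:**
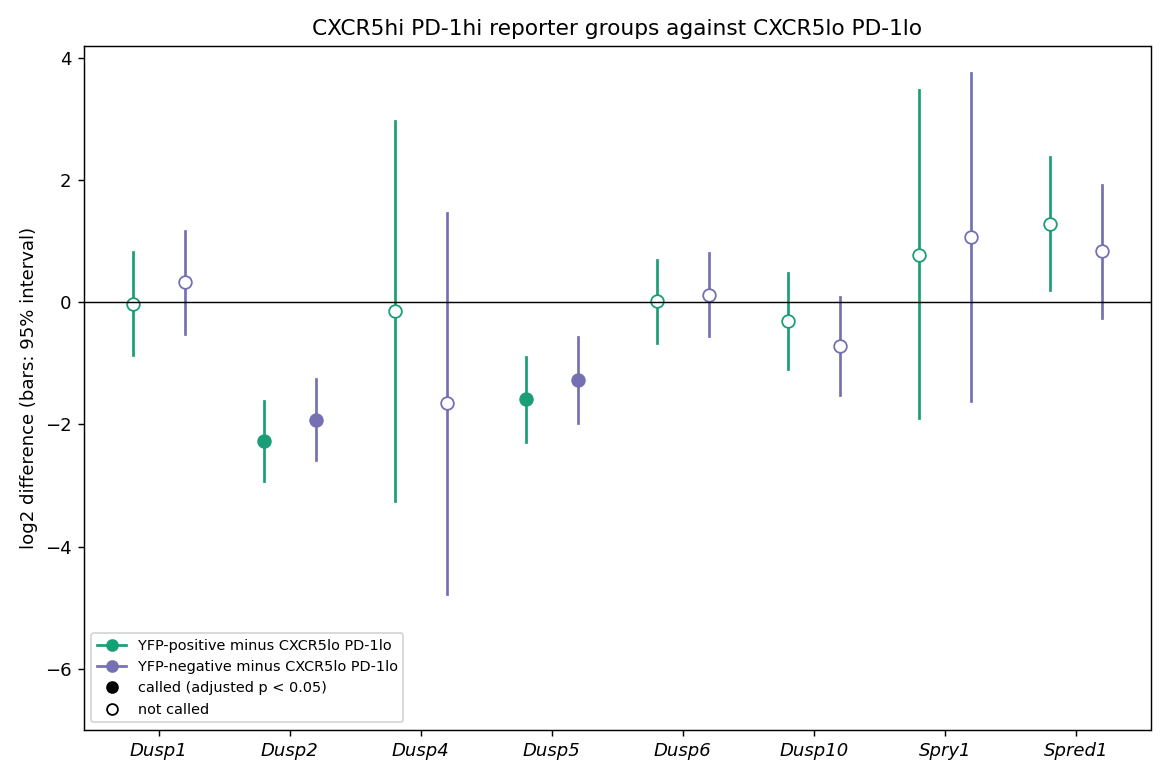
Log2 difference of each of the 8 tested members between a CXCR5hi PD-1hi reporter group and CXCR5lo PD-1lo cells (points) with its 95% interval (bars), in green for YFP-positive and purple for YFP-negative cells; filled points passed the test. Dusp2 and Dusp5 lie below 0 in both comparisons, at -2.27 and -1.59 for YFP-positive cells, while the intervals of Dusp4 and Spry1 are the widest.

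Some markers listed for other cells moved with the same groups. Of the 7 germinal centre B and plasma cell markers, 6 were measured. The log2 of their summed unlogged values ran from 7.96 to 10.79 in CXCR5lo PD-1lo cells. It ran from 4.75 to 8.54 in YFP-positive and from 4.83 to 12.46 in YFP-negative cells. Jchain stood at 10.53, 7.91 and 7.72 and Prdm1 at 8.12, 5.48 and 4.24 on the CXCR5lo PD-1lo arrays. The others of this list, Mzb1, Sdc1, Rgs13 and Mef2b, were at 2.61 or less there. Of the 3 tested markers of the list Prdm1 alone was called, at -3.7 for YFP-positive and -3.57 for YFP-negative cells. Of 10 B cell markers, 9 were measured, and Cd79a and Ms4a1 were at 3.10 or less on every array. Cd79b stood at 5.26, 5.30 and 5.36 on the CXCR5lo PD-1lo arrays and at 2.81 or less on the others, while Cd22 was 7.33 higher in YFP-positive than in CXCR5lo PD-1lo cells. Of the 4 regulatory T cell markers, 1 was called higher and 1 lower in each comparison. The interleukin-2 receptor gene Il2ra differed by -5.15 for YFP-positive and by -5.19 for YFP-negative cells, and Ikzf2 by 1.03 and 0.97. For the 4 measured of 6 naive T cell markers the log2 of the summed unlogged values ran from 14.87 to 15.43 in CXCR5lo PD-1lo cells. It ran from 12.50 to 13.70 in YFP-positive and from 13.25 to 14.01 in YFP-negative cells. The part of these cells in the Dusp2 and Dusp5 differences was not tested. In bulk samples, fewer cells of a type and less RNA per cell cannot be told apart.

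Spred1, which holds back Ras signalling to Raf, lay the other way. Its chosen probe set read 10.63, 10.28, 9.57 and 10.15 on the YFP-positive arrays, 10.16, 10.01, 8.67 and 10.01 on the YFP-negative arrays, and 9.87, 9.10 and 7.64 on the CXCR5lo PD-1lo arrays. The groups overlapped, and the YFP-positive difference of 1.29 (SE 0.51) did not pass the test (adjusted p = 0.14 by limma). That equal label numbers mark paired samples is assumed and not stated in the labels. In these groups the numbers coincide with the normalization sets, so pairing and shared normalization cannot be told apart. Under the replicate block the YFP-positive difference passed, at 1.24 (SE 0.22, adjusted p = 0.0059 by limma). In sets 1, 2 and 3 it was 0.76, 1.18 and 1.93. Without CXCR5lo PD-1lo replicate 1 it also passed, at 1.79 (adjusted p = 0.044 by limma). The YFP-negative difference was 0.84 (SE 0.51, adjusted p = 0.5 by limma) and passed with the block, at 0.79 (SE 0.22, adjusted p = 0.04 by limma).

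Spred1 has 7 probe sets that passed the filter, and all 7 read higher in YFP-positive than in CXCR5lo PD-1lo cells. In a fit of all probe sets, chosen after seeing the data, 4 of the 7 passed the test. The probe set 1460116_s_at differed by 1.49 (SE 0.26, adjusted p = 0.0012 by limma) and read 10.46, 10.02, 10.10 and 10.27 on YFP-positive against 8.82, 9.07 and 8.27 on CXCR5lo PD-1lo arrays. These ranges did not overlap. It also passed the test in YFP-negative cells, at 1.05 (SE 0.26, adjusted p = 0.024 by limma). The others called in YFP-positive cells differed by 1.59 (1452911_at), 1.67 (1423161_s_at) and 1.76 (1428777_at). The mean of the Spred1 probe sets differed by 1.43 (SE 0.29, adjusted p = 0.0035 by limma).

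**Figure D3:**
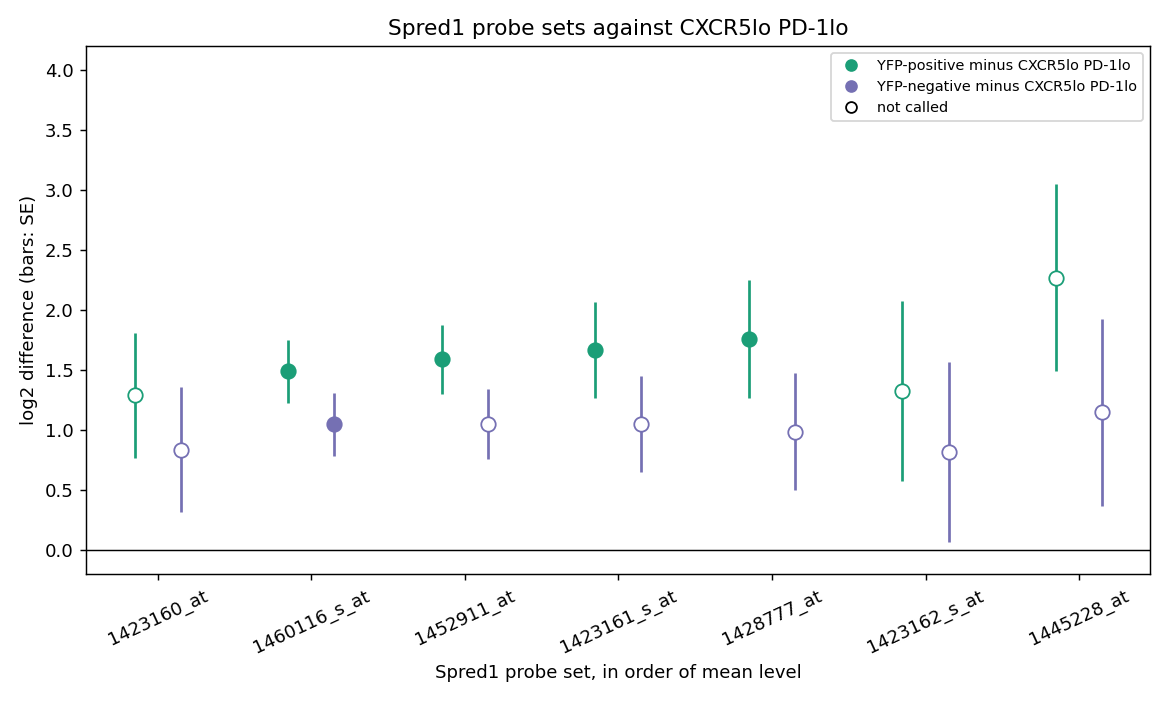
Log2 difference of each Spred1 probe set from CXCR5lo PD-1lo cells (points) with its SE (bars), green for YFP-positive and purple for YFP-negative cells, ordered by mean level; filled points passed the test. All points lie above 0, and the chosen probe set at the left, at 1.29, did not pass.

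The other tested members did not pass the test against CXCR5lo PD-1lo cells. For the cytoplasmic ERK phosphatase Dusp6 the 95% interval of the difference ran from -0.66 to 0.69 in YFP-positive and from -0.55 to 0.80 in YFP-negative cells. For Dusp1 it ran from -0.87 to 0.83 and from -0.52 to 1.17. Dusp10, the p38 and JNK phosphatase, differed by -0.71 (SE 0.37, adjusted p = 0.39 by limma) in YFP-negative cells, and by -0.49 (SE 0.12, adjusted p = 0.027) with the replicate block, where it passed. Dusp4 differed there by -1.65 (SE 1.47, adjusted p = 0.74 by limma) and passed with the replicate block, at -2.71 (SE 0.62, adjusted p = 0.022). With the block 5 members were called there, against 2 without, and over all genes the share called was 24% against 6.53%. Spry1 did not pass the test, at 0.78 (SE 1.27) in YFP-positive and 1.07 (SE 1.27) in YFP-negative cells.

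YFP-positive and YFP-negative CXCR5hi PD-1hi cells were compared to see whether reporter level splits the members. None of the 8 was called by limma, where 0.121% of all genes were called and 786 had an unadjusted p under 0.05. No member was at an unadjusted p under 0.05. The 95% interval of the Dusp2 difference ran from -0.97 to 0.25 and that of Dusp6 from -0.73 to 0.52. Dusp2 was lower in the YFP-positive cells of all 4 normalization sets, with differences of -0.40, -0.26, -0.44 and -0.32. Dusp10 was higher in all 4, by 0.40, 0.63, 0.13 and 0.47. Its mean difference was 0.41 (SE 0.35, adjusted p = 1 by limma), and blocking on the set left it at 0.41 (SE 0.09) and past the test, at an adjusted p of 0.028 by limma, where 15.5% of all genes were called. With the replicate block Dusp10 had an adjusted p of 0.078 by limma and no member was called. Its second probe set, 1417164_at, differed by -0.05 (SE 0.26). Dusp4 differed by 1.51 (SE 1.36), with set values of -0.82, 2.50, 2.87 and 1.5. In set 1 the YFP-positive array is from day 7 and the YFP-negative array from day 10, while in sets 2, 3 and 4 the days match.

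Bcl6yfp/+ and Bcl6+/+ cells were compared to see whether carrying the reporter allele moves the members. All Bcl6yfp/+ arrays are from day 7, while Bcl6+/+ replicates 1 and 2 are from day 10, so allele and day cannot be fully told apart. Set 6 too holds Bcl6+/+ replicate 2 from day 10. No member was called, nor was any gene (0% of 9930 by limma, 287 at an unadjusted p under 0.05). Spred1 read 11.98, 11.41 and 10.70 in Bcl6yfp/+ and 10.50, 10.80 and 10.80 in Bcl6+/+ cells, and the ranges overlapped. The difference was 0.66 (SE 0.55, 95% interval -0.50 to 1.82), and 0.25 in set 6, which holds 2 arrays of each genotype. In that set Dusp1 differed by -0.17, Dusp2 by 0.05, Dusp5 by 0.14, Dusp6 by 0.12 and Dusp10 by 0.00. The interval of the Dusp6 difference over all arrays was -0.78 to 0.66 and that of Dusp1 -1.03 to 0.78. The median over all genes was -0.26 as deposited and -0.05 after quantile normalization.

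Dusp6 and Dusp1 were higher than in naive cells in all 4 comparisons with groups of immunized mice (YFP-positive, YFP-negative, CXCR5lo PD-1lo and the mean of both genotypes). Dusp1 lost these calls under some settings, given below. Dusp6 was 4.67-fold to 5.09-fold higher and Dusp1 3.28-fold to 4.44-fold. Spred1, by its chosen probe set, was 4.53-fold to 11.3-fold higher in the CXCR5hi PD-1hi comparisons. It did not pass the test in CXCR5lo PD-1lo cells as fitted here, but passed under some settings and by another probe set, given below. Dusp2 and Dusp5 were higher than naive in CXCR5lo PD-1lo cells and did not pass the test in the CXCR5hi PD-1hi comparisons as fitted here. All 4 comparisons share the 2 naive arrays. Of the 4 regulatory T cell markers, Ikzf2 and Ctla4 were called higher than naive in all 4 comparisons, by 4.25 to 5.29 and 4.02 to 4.50. Il2ra and Foxp3 were called lower in the 3 CXCR5hi PD-1hi comparisons, and Foxp3 stood at 5.39 and 8.17 on the naive arrays and at 5.88 or less on the others. The part of these markers in the differences from naive was not tested.

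Dusp6 stood at 9.27 and 9.68 on the naive arrays and between 11.20 and 12.44 on the other 17. No array of an immunized mouse overlapped the naive arrays. The difference was 2.22 (SE 0.38, adjusted p = 0.00085 by limma) for CXCR5lo PD-1lo and 2.24 (SE 0.36, adjusted p = 2e-04) for YFP-positive cells. It was 2.35 (SE 0.36, adjusted p = 0.00015) for YFP-negative cells and 2.24 (SE 0.34, adjusted p = 0.00011) for the mean of the genotypes. Within set 4 it was 3.04 for YFP-positive and 3.17 for YFP-negative cells, and within set 5 1.91 for Bcl6yfp/+ cells. The 5 groups of immunized mice spanned 11.69 to 11.82 in mean level, and all neighbours in that order overlapped.

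Dusp1, the early response phosphatase that acts on p38, JNK and ERK, stood at 11.27 and 12.17 on the naive arrays and between 12.61 and 14.55 on the others. The ranges did not overlap, although CXCR5lo PD-1lo replicate 1, at 12.61, came near. The differences were 1.73 (SE 0.48, adjusted p = 0.027 by limma) for CXCR5lo PD-1lo, 1.71 (SE 0.45, adjusted p = 0.0094) for YFP-positive, 2.06 (SE 0.45, adjusted p = 0.0034) for YFP-negative cells and 2.15 (SE 0.43, adjusted p = 0.0012) for the genotypes. In set 4 they were 2.80 and 2.89 and in set 5 2.36. After quantile normalization of all arrays none of the 4 passed, at 1.21, 1.25, 1.63 and 1.52 (adjusted p 0.25, 0.13, 0.063 and 0.06 by limma). Without naive replicate 1 the first 3 no longer passed, at 1.28, 1.27 and 1.61. The first was also lost without CXCR5lo PD-1lo replicate 2 (1.58) or 3 (1.47), with no filter (adjusted p = 0.05 by limma) and with only the groups compared (adjusted p = 0.11).

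Spred1 stood at 6.74 and 8.32 on the naive arrays. The difference was 2.63 (SE 0.58, adjusted p = 0.0029 by limma) for YFP-positive, 2.18 (SE 0.58, adjusted p = 0.013) for YFP-negative cells and 3.50 (SE 0.55, adjusted p = 0.00015) for the genotypes. CXCR5lo PD-1lo replicate 3, at 7.64, lay between the naive arrays, and that group's difference was 1.34 (SE 0.61, adjusted p = 0.16 by limma). Without that array it was 1.96 and passed (adjusted p = 0.039 by limma). With the set as a block it passed too, at 2.33 (SE 0.41, adjusted p = 0.0043 by limma), though no set holds both groups. In the fit of all probe sets 1423161_s_at alone was called in that comparison, at 1.95 (SE 0.48, adjusted p = 0.015 by limma). Within set 4 the reporter groups differed from naive by 3.41 and 3.27, and within set 5 Bcl6yfp/+ cells by 3.66. Without naive replicate 1 the YFP-positive and YFP-negative differences were 1.83 and 1.39 and no longer passed. The YFP-negative call was also lost after quantile normalization (1.81, adjusted p = 0.073 by limma). The size in the genotypes depended on the probe set: the other 6 read 0.01 to 3.15, and the mean of the Spred1 probe sets differed by 1.63 (SE 0.31, adjusted p = 0.00089 by limma).

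Dusp2 and Dusp5 rose in CXCR5lo PD-1lo against naive cells, by 1.5 (SE 0.37, adjusted p = 0.014 by limma) and 1.57 (SE 0.39, adjusted p = 0.016). Naive arrays read 10.55 and 10.32 for Dusp2 and 11.19 and 10.11 for Dusp5, below all 3 CXCR5lo PD-1lo arrays in both genes. In YFP-positive cells Dusp2 was -0.77 from naive (SE 0.35, adjusted p = 0.11 by limma), with both naive arrays above all 4 of its arrays, and the 95% interval of Dusp5 ran from -0.81 to 0.77. With the set as a block both were called lower than naive in YFP-positive cells, at -1.14 (SE 0.23) and -1.16 (SE 0.37). Only set 4 holds both YFP-positive (day 10) and naive arrays, 1 of each, and within it Dusp2 differed by -1.12 and Dusp5 by -1.20. Within set 5 Bcl6yfp/+ cells differed from naive by -0.05 and 1.19. Dusp2 was also called lower in YFP-positive cells after quantile normalization (-1.34, adjusted p = 0.032 by limma). In YFP-negative cells it was called lower with the set as a block (-0.78, adjusted p = 0.023 by limma). No normalization set holds both CXCR5lo PD-1lo and naive arrays. With the set as a block, which links them through the reporter groups, the Dusp2 difference was 1.05 (SE 0.25, adjusted p = 0.017 by limma) and that of Dusp5 was lost, at 0.24 (SE 0.41, adjusted p = 0.73). Each of these calls was lost after quantile normalization (0.91 and 0.98) and with only the groups compared (adjusted p = 0.083 and 0.096 by limma). Without naive replicate 2 they were 1.39 and 1.03 and lost, Dusp2 was lost without naive replicate 1 (1.62) or CXCR5lo PD-1lo replicate 2 (1.37), and Dusp5 without CXCR5lo PD-1lo replicate 3 (1.37).

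4 of 8 were called, all higher, in CXCR5lo PD-1lo against naive cells, where 11.9% of all genes were called and 10.4% higher. For YFP-positive cells 4 of 8 were called, all higher, beside 28.8% of all genes (22.4% higher), for YFP-negative cells 3 of 8 beside 21.1% (16.5% higher), and for the genotypes 3 of 8 beside 34.3% (28.4% higher). Members above naive cells with no overlap of arrays numbered 7, 5, 5 and 4 of 8 in these comparisons, beside 48%, 38.3%, 37% and 25.6% of all genes. The member medians were 1.65, 1.98, 2.12 and 1.78. The medians of all genes were 0.46, 0.39, 0.38 and 0.50 as deposited, and after quantile normalization -0.08, -0.08, -0.08 and 0.07. The member medians are of the deposited values too and are not given after quantile normalization, so only the deposited medians can be set side by side. All-gene calls, higher and lower, were 1028 and 157, 2222 and 641, 1637 and 461, and 2822 and 588 as deposited. After quantile normalization they were 635 and 737, 1746 and 2045, 1264 and 1538, and 1922 and 1320. Of the 8 members 1, 4, 1 and 2 were then called, beside 13.8%, 38.2%, 28.2% and 32.6% of all genes. In YFP-positive cells 1 of the called members was lower, and every other call was higher.

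**Figure D4:**
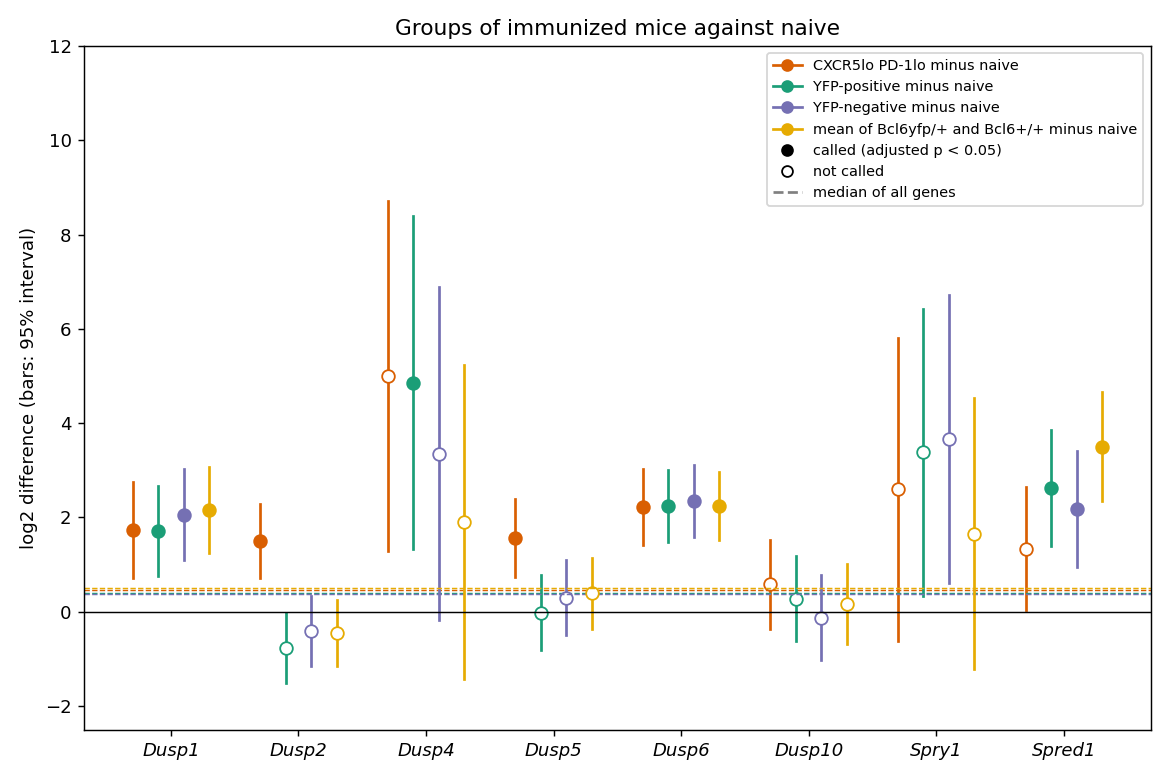
Log2 difference of each tested member between a group of immunized mice and naive cells (points) with its 95% interval (bars), coloured by group; filled points passed the test and dashed lines mark the median of all genes. Dusp6 lies between 2.22 and 2.35 in the 4 comparisons, while Dusp2 and Dusp5 are filled for CXCR5lo PD-1lo cells alone.

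Dusp4 and Spry1 scattered widely within groups, with an SD of 2.35 for Dusp4 and 1.89 for Spry1 in YFP-positive cells. Dusp4, a nuclear phosphatase, read 5.30, 5.67, 7.63 and 10.43 on the YFP-positive and 6.13, 3.16, 4.77 and 8.93 on the YFP-negative arrays. It read 7.51, 6.50 and 8.19 on the CXCR5lo PD-1lo arrays and 2.52 and 2.28 on the naive arrays. Bcl6yfp/+ arrays read 7.00, 2.62 and 2.61 and Bcl6+/+ arrays 7.04, 3.89 and 2.63, so that in each genotype replicate 1 was high and the arrays of set 6 low. Spry1, which blocks growth factor signalling to Ras and Raf, read 3.32, 5.20, 6.21 and 7.82 in YFP-positive, 5.56, 5.03, 5.69 and 7.42 in YFP-negative and 2.97, 5.01 and 6.59 in CXCR5lo PD-1lo cells. It read 6.18, 2.31 and 2.30 in Bcl6yfp/+, 7.15, 2.31 and 3.24 in Bcl6+/+ and 2.33 and 2.18 in naive cells.

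Both genes followed each other over the arrays. Pearson's r between them was 0.82 over 19 arrays that share groups, days and normalization sets, the highest value for Dusp4 among all genes tested. Naive arrays lay at the floor of the GCRMA scale for both, and a fold against them depends on where that floor lies. Dusp4 passed the test in YFP-positive against naive cells, at 4.86 (SE 1.67, adjusted p = 0.038 by limma). That call was lost without YFP-positive replicate 3 (4.73) or 4 (3.80), without naive replicate 1 (4.98) or 2 (4.74), and with no filter (adjusted p = 0.093). Within set 4 the difference was 7.91. Dusp4 was 5.0 (SE 1.76, adjusted p = 0.073 by limma) higher in CXCR5lo PD-1lo than in naive cells. Spry1 differed from naive by 3.38 (SE 1.44, adjusted p = 0.088) in YFP-positive and 3.67 (SE 1.44, adjusted p = 0.083) in YFP-negative cells. Without YFP-positive replicate 1 the first was 4.16 and passed (adjusted p = 0.047 by limma). With the set as a block Dusp4 and Spry1 passed in all 4 comparisons with naive cells, at 5.04 to 9.11 and 4.24 to 5.43. The 9.11 is Dusp4 in CXCR5lo PD-1lo cells, which share no set with naive arrays and are linked to them through the reporter groups. Reporter and naive arrays meet only in set 4, where both reporter arrays are from day 10.

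**Figure D5:**
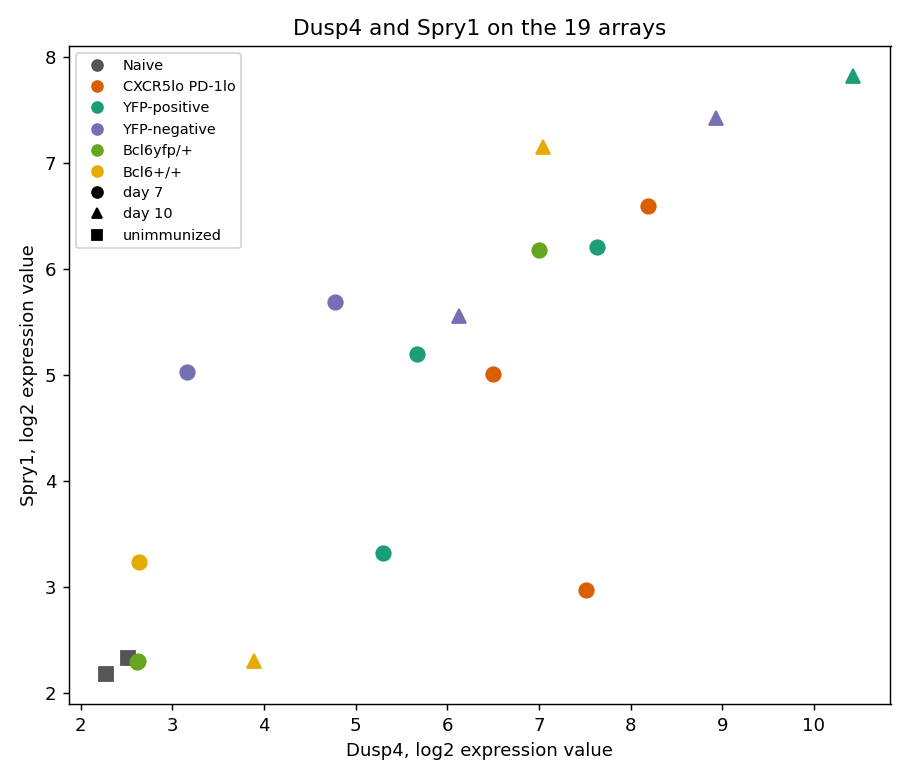
Log2 expression value of Spry1 (vertical axis) against that of Dusp4 (horizontal axis) on the 19 arrays, coloured by group, with circles for day 7, triangles for day 10 and squares for naive cells. YFP-positive replicate 4 lies at the upper right, at 10.43 and 7.82, and the naive arrays and the arrays of set 6 lie at the lower left.

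Day 10 and day 7 were compared within the 3 groups that hold both days. No member was called by limma, although Dusp4 and Dusp5 had an unadjusted p under 0.05, where 0.232% of all genes were called by limma and 1011 had an unadjusted p under 0.05. Dusp4 had the largest member difference, 3.57 (SE 0.88, unadjusted p = 0.001, adjusted p = 0.11 by limma). It was higher at day 10 by 4.23 in YFP-positive, 3.56 in YFP-negative and 2.84 in Bcl6+/+ cells, and without Bcl6+/+ replicate 2 it passed the test, at 3.97 (adjusted p = 0.039 by limma). Spry1 was higher at day 10 by 2.91, 1.13 and 1.5 in the same groups, with a fitted difference of 1.78 (SE 1.0, adjusted p = 0.6). Dusp5 differed by -0.55 (SE 0.25, adjusted p = 0.44) and Dusp6 by 0.50 (SE 0.24, adjusted p = 0.51). Of the 5 arrays from day 10, YFP-positive and YFP-negative replicate 4 form set 4 with a naive array and Bcl6+/+ replicate 1 is alone in set 7, so that for these arrays day and normalization set cannot be told apart. With the set as a block the Dusp4 difference was 1.88. The day effect did not pass a test of the difference between YFP-positive and YFP-negative cells for any member (adjusted p = 1 by limma for all 8).

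Dusp10 was well above the filter value in all groups. Its naive arrays read 11.91 and 11.56, and the other 17 lay between 10.91 and 12.84. All neighbours in the order of group means overlapped, from 12.32 in CXCR5lo PD-1lo to 11.60 in YFP-negative cells. It was not called in any of the 9 comparisons. Within set 4 it was below naive, at -0.52 for YFP-positive and -0.99 for YFP-negative cells, and a block on the set made it pass there, at -0.55 (adjusted p = 0.025 by limma) and -0.96 (adjusted p = 0.0019), against 0.28 and -0.13 without a block. Dusp14, which restrains T cell receptor signalling, ran from 2.07 to 2.21, and Spry2 from 2.15 to 2.61. Both lay at the floor on all 19 arrays, which gives no level for them.

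The remaining DUSP and Sprouty genes were counted as a list. Of 21 listed, 20 were measured and 9 tested. In YFP-positive against CXCR5lo PD-1lo cells 2 of the 9 were called, beside 10.6% of all genes. Dusp16, a JNK and p38 phosphatase, was higher by 4.09 (SE 1.06, adjusted p = 0.019 by limma), at 6.89 to 10.05 against 3.03 to 5.18. Dusp22, which dephosphorylates the receptor-proximal kinase Lck, was lower, at -1.33 (SE 0.40, adjusted p = 0.044), and in YFP-negative cells at -1.67 (SE 0.40, adjusted p = 0.016). Against naive cells Dusp16 was higher in YFP-positive cells, by 3.46 (SE 1.2, adjusted p = 0.04), as was Dusp19, by 1.15 (SE 0.37, adjusted p = 0.027), which was also higher in the genotypes, by 1.19. The list medians against CXCR5lo PD-1lo were 0.12 and -0.27.

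The cascade that the members brake was counted in the same way. Of 17 tested Ras-ERK genes, 1 was higher and 2 lower in YFP-positive than in CXCR5lo PD-1lo cells, beside 5.18% and 5.39% of all genes. The list median was -0.16 in that comparison, beside -0.065 over all genes. Ksr1, the scaffold that holds Raf, MEK and ERK together, was higher by 0.91 (SE 0.20, adjusted p = 0.0058 by limma), and Rasgrp1 lower, at -0.77 (SE 0.20, adjusted p = 0.02). Rasa3, a GTPase-activating protein that switches Ras off, was lower, at -1.88 (SE 0.29, adjusted p = 0.00038), at 10.79 to 11.64 against 12.81 to 13.20. In YFP-negative cells Ksr1 was higher by 1.0 and Rasa3 lower, at -1.15. Against naive cells 2 were higher in CXCR5lo PD-1lo, 4 in YFP-positive, 4 in YFP-negative cells and 5 in the genotypes, beside 10.4%, 22.4%, 16.5% and 28.4% of all genes. Called lower were 0, 2, 1 and 1, beside 1.58%, 6.46%, 4.64% and 5.92%. Ksr1 was called higher in all 4 comparisons, from 3.37 in CXCR5lo PD-1lo to 4.76 in the genotypes, and so was Nf1, at 1.88 to 2.32. Rasa3 was called lower in the CXCR5hi PD-1hi comparisons, at -1.88, -1.15 and -1.12. The Ras-ERK median against naive cells was 0.46 to 0.56, close to that of all genes.

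Of 19 tested p38 and JNK genes, 3 were higher and 2 lower in YFP-positive than in CXCR5lo PD-1lo cells, beside 5.18% and 5.39% of all genes. The list median was -0.04 in that comparison, beside -0.065 over all genes. Gadd45a, a stress-induced partner of an upstream kinase, was higher by 1.80 (SE 0.39, adjusted p = 0.0057 by limma) and the p38 kinase Map2k3 by 1.29 (SE 0.25, adjusted p = 0.0022). Map2k6, the other main p38 kinase, was lower, at -1.41 (SE 0.24, adjusted p = 0.00086). Against naive cells 5 were higher in CXCR5lo PD-1lo, 8 in YFP-positive, 7 in YFP-negative cells and 9 in the genotypes, beside 10.4%, 22.4%, 16.5% and 28.4% of all genes. Gadd45b led each, from 4.99 (SE 0.35) to 5.88 (SE 0.33), with 6.82 and 7.03 on the naive arrays.

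Of 21 tested ERK-responsive genes, 12 were called higher than naive in CXCR5lo PD-1lo cells, where 10.4% of all genes were called higher, led by Jun at 3.33, Junb at 3.04 and Nr4a1 at 2.82. In YFP-positive cells 9 were higher and 1 lower, in YFP-negative cells 10 and 1, and in the genotypes 11 and 1, beside 22.4%, 16.5% and 28.4% of all genes called higher. The list medians were 1.38, 1.23, 1.28 and 1.27. The growth regulator Myc was the gene called lower each time, at -2.47, -1.91 and -2.25. Against CXCR5lo PD-1lo cells Myc was lower, at -2.40 (SE 0.50, adjusted p = 0.0045 by limma) in YFP-positive and -1.84 (SE 0.50, adjusted p = 0.036) in YFP-negative cells, and Ier2 at -1.85 (SE 0.46, adjusted p = 0.015) in YFP-positive cells.

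The genes whose pattern was most like each member were found by Pearson correlation over the 19 arrays, which share groups and normalization sets. Dusp1 was followed by Zfand5 (0.97), Phlda1 (0.92) and Tnfaip3 (0.92), and Dusp6 by Ctla4 (0.91), Tspoap1 (0.90) and Map3k8 (0.89). Dusp2 was followed by Wfikkn2 (0.91), Itgae (0.90) and Lbp (0.89), and Dusp5 by Ahnak (0.83), Tnfrsf19 (0.81) and Aopep (0.81). After Spry1, Dusp4 was most like Susd2 (0.81) and Plxnd1 (0.79), and Spry1 most like Ciart (0.92), Fosb (0.90) and Magee1 (0.85). Dusp10 was followed by Epb41l2 (0.92), Dclre1b (0.91) and Gcfc2 (0.90), and Spred1 by Ifi204 (0.90), Sik3 (0.88) and Repin1 (0.87). Among members, Dusp1 and Dusp6 had r of 0.85 and Dusp2 and Dusp5 of 0.72.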

How the data were processed

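The series matrix was used as deposited: log2 expression values for 45101 probe sets on 19 arrays, which the authors made with GCRMA per the submitters' processing notes (version not given in the sources used here). Probe sets were named from the platform annotation and updated by Entrez identifier. Per gene, the probe set with the highest mean among those with that symbol alone was kept, and 9930 genes at a log2 value of 4 or more on at least 2 arrays were tested. Group means of all 19 arrays were fitted with limma 3.58.1 in R 4.3.3. P-values were adjusted by Benjamini-Hochberg over all genes, with calls at 0.05, and the script was tested on simulated data. Array precision is limited by the number of arrays. Normalization sets were defined by a mean difference of sorted values under 0.06 (largest value inside a set 0.0482, smallest across sets 0.0666).

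Same-numbered arrays deviated together in the sort groups (r 0.27 to 0.87 over 10 pairs) and the genotypes (0.57 to 0.64 over 3 pairs). Arrays of unlike number ran from -0.65 to 0.39 and from -0.63 to 0.56. In the sort groups the numbers coincide with normalization sets 1 to 4, so pairing and shared normalization cannot be told apart there. Days differ within replicate 1 of the reporter groups and replicates 1 and 2 of the genotypes. The label numbers were used as the replicate block on the assumption that they pair the samples. Naive numbers are accession order and pair nothing. Named genes were the members, from each list and comparison up to 3 called genes with the largest and 3 with the smallest difference, and 3 most like genes per member. The members and lists were chosen with earlier results of these data known. Alternatives covered quantile normalization, the filter, the mean of probe sets, set, day and replicate terms, the groups fitted and each array left out.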

Additional observations from a re-analysis of the deposited data

Results flagged for a closer look

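Spred1 on YFP-negative replicate 3 stood apart from its group. It had a log2 value of 8.67, against 10.16, 10.01 and 10.01 on the other YFP-negative arrays. It was the 1 sample found by Dixon's test among 20 groups of 4 arrays tested, and chance alone flags about 1 group in 20.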

How the results depend on the processing

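Of 129 counts of called members under other settings, 107 stayed within 1.5 times the main count. These include counts of 0 that stayed at 0, and the measure ignores which members were called. In YFP-positive against naive cells quantile normalization gave 4 calls as in the main fit, but 3 higher and 1 lower instead of 4 higher. After quantile normalization 1 member was called in CXCR5lo PD-1lo and 1 in YFP-negative against naive cells, beside 13.8% and 28.2% of all genes. With no filter, with day as a covariate and with only the groups compared, 1 was called in YFP-negative against CXCR5lo PD-1lo cells, and with only the groups compared 2 in CXCR5lo PD-1lo against naive cells. In that order 2.94%, 4.95%, 5.56% and 4.19% of all genes were called. With the normalization set as a block 5 were called in YFP-negative against CXCR5lo PD-1lo cells, 1 between the reporter groups, and 8 (5 higher, 3 lower), 7 (5 higher, 2 lower) and 5 (all higher) in YFP-positive, YFP-negative and genotype means against naive cells. The share of all genes called was then 30.5%, 15.5%, 47%, 41.6% and 24.7%. The replicate block called 5 in YFP-negative against CXCR5lo PD-1lo cells, beside 24% of all genes. It also called Spred1 in YFP-positive against CXCR5lo PD-1lo cells (1.24), where 37.2% of all genes were called, and changed no other member's call. Leaving out 1 array gave 2 to 3 calls in YFP-positive and 1 to 2 in YFP-negative against CXCR5lo PD-1lo cells, and 0 to 0 between reporter groups and between genotypes. Of all genes, 6.59% to 10.6% and 4.17% to 6.09% were called against CXCR5lo PD-1lo cells, and 0.0403% to 3.09% between reporter groups. Against naive cells it gave 2 to 4 for CXCR5lo PD-1lo, 1 to 5 for YFP-positive, 1 to 3 for YFP-negative and 3 to 3 for the genotypes, and 0 to 1 for day. There the share of all genes called ran from 5.78% to 11.6%, 16% to 32.1%, 11.3% to 21.2% and 17.3% to 52.9%. For day it ran from 0% to 3.98%. The cause of these changes was not tested.

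Of 674 single-gene values, over the 48 pairs of member and comparison whose difference reached its SE or that were called in any fit (a choice made after seeing the table), 596 kept direction and call, 36 lost the call, 30 gained it and 12 reversed. Against naive cells Dusp10 reversed to -0.18 (quantile) and -0.55 (set block) in YFP-positive, to -0.47 (set block) in CXCR5lo PD-1lo, and in YFP-negative cells to 0.01 (day), 0.10 without YFP-negative replicate 4 and 0.05 without naive replicate 1 (range with 1 array left out -0.41 to 0.10). Dusp5 reversed in YFP-positive cells to 0.12 (day), 0.02 and 0.19 without YFP-positive replicate 3 or 4 and 0.52 without naive replicate 1 (range -0.56 to 0.52), and in the genotypes to -0.19 (quantile) and -0.15 without naive replicate 2 (range -0.15 to 0.93). Dusp6 kept its call against naive cells, and Dusp2 against CXCR5lo PD-1lo cells, under every setting run.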
